A study of Mus musculus with 6 samples.

Results

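Mucins, trefoil factors, gastrokines and the proteins released with them form the mucous coat of the stomach, gut and airways. The set described here holds 32 genes of this secretory program, taken by symbol from a table of 55471 genes, and all 32 were found. Of these, 30 reached a mean normalized count of 10 over the libraries and were tested among 19416 genes. The remaining pair, Muc2 and Gkn3, had means of 0.828 and 6.06, and the nearest genes above the limit were Muc6 and Gkn2, with means of 12.3 and 14.2. The libraries came from L1CAM+ thymic tuft cells, rare epithelial cells of the mouse thymus with a taste-like chemosensory machinery, purified through this surface protein. All mice carried floxed Ikzf1 alleles (Ikzf1fl/fl), Ikzf1 being the gene that encodes the DNA-binding protein Ikaros. The 3 samples given as WT were Foxn1-Cre (-), and the 3 given as KO were Foxn1-Cre (+), with a recombinase driven by Foxn1, a gene of thymic epithelium, so that deletion would not be limited to tuft cells. Age, sex and strain are not given in the labels, and the labels do not tie libraries to separate animals. The p-values therefore reflect only how much these samples vary, in part perhaps for technical reasons. The expression table has columns Het1, Het2, Het3, Ko1, Ko2 and Ko3. Ko was read as the Foxn1-Cre (+) group, and Het as the Foxn1-Cre (-) group because it is the only other. Where a group has 3 values, they stand in the order of the library numbers.

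Gel-forming mucins are secreted polymers that give mucus its body, while membrane mucins stay anchored on the apical surface. Trefoil factors and gastrokines are small stable proteins of the gastric and intestinal lining, and goblet cells package mucins with folding enzymes and granule proteins under the control of transcription factors such as Spdef. In the thymus, medullary epithelial cells express such tissue genes, and mimetic subsets take on programs of gut, airway and skin cells, which exposes developing T cells to these self-proteins.

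Recovered library totals ran from 12238400 to 31435800 reads. Ikzf1 itself did not check the labels in the direction a deletion would give. It stood at 301, 187 and 273 normalized counts in the Het group and at 1572, 1463 and 1717 in the Ko group (log2 fold change 2.66 ± 0.30, SE; limma adjusted p = 0.0105). The labels do not say which part of the gene is deleted, so every direction here is between libraries as labelled Het and Ko. Pearson's r across the tested genes was 0.787 to 0.790 between Het1 and the other Het libraries and 0.801 to 0.815 between Het1 and the Ko libraries, so Het1 lay nearer to the Ko libraries than to its own group. Tuft cell markers were high in all libraries, with 20 of 20 tested and summed normalized counts of 182506 to 250265 in Het and 273601 to 329443 in Ko libraries. The gap between these sums came through Rgs13, and without it the groups overlapped. Rgs13 was at 34571, 29287 and 32157 in Het and at 68079, 78565 and 98061 in Ko libraries.

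Of the 30 tested genes, 5 fell in the libraries labelled Ko and 0 rose (limma, adjusted p under 0.05). They were the immunoglobulin transporter gene Pigr, the gastric peptide genes Tff1 and Gkn1, the mucus protein gene Fcgbp and the membrane mucin gene Muc13. Over all tested genes, 0.525% were called lower and 0.288% higher. At an unadjusted p under 0.05, 13 of the 30 were lower and 0 higher, against 7.99% and 5.62% of all tested genes. Fold changes were negative for 26 and positive for 4 genes, where 52.8% of all tested genes were negative. The median log2 fold change was -2.57, beside -0.05 over all tested genes. Gkn1 and Zg16, which had no reads in the Ko group, lay below this median. They did so at their bounds too, so setting them there could not change it. In 11 genes every Ko library lay below every Het library, which held for 9.86% of all tested genes, and in 0 genes every Ko library lay above every Het library, which held for 8.57%. These counts describe the list and are no test of it, since 10 of the 30 genes had a Ko mean under 10 and passed the limit on low values through the Het libraries alone, while 0 had a Het mean under 10. In RNA from sorted bulk cells, a smaller number of cells carrying a program cannot be separated from less RNA in each of them.

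**Figure D1:**
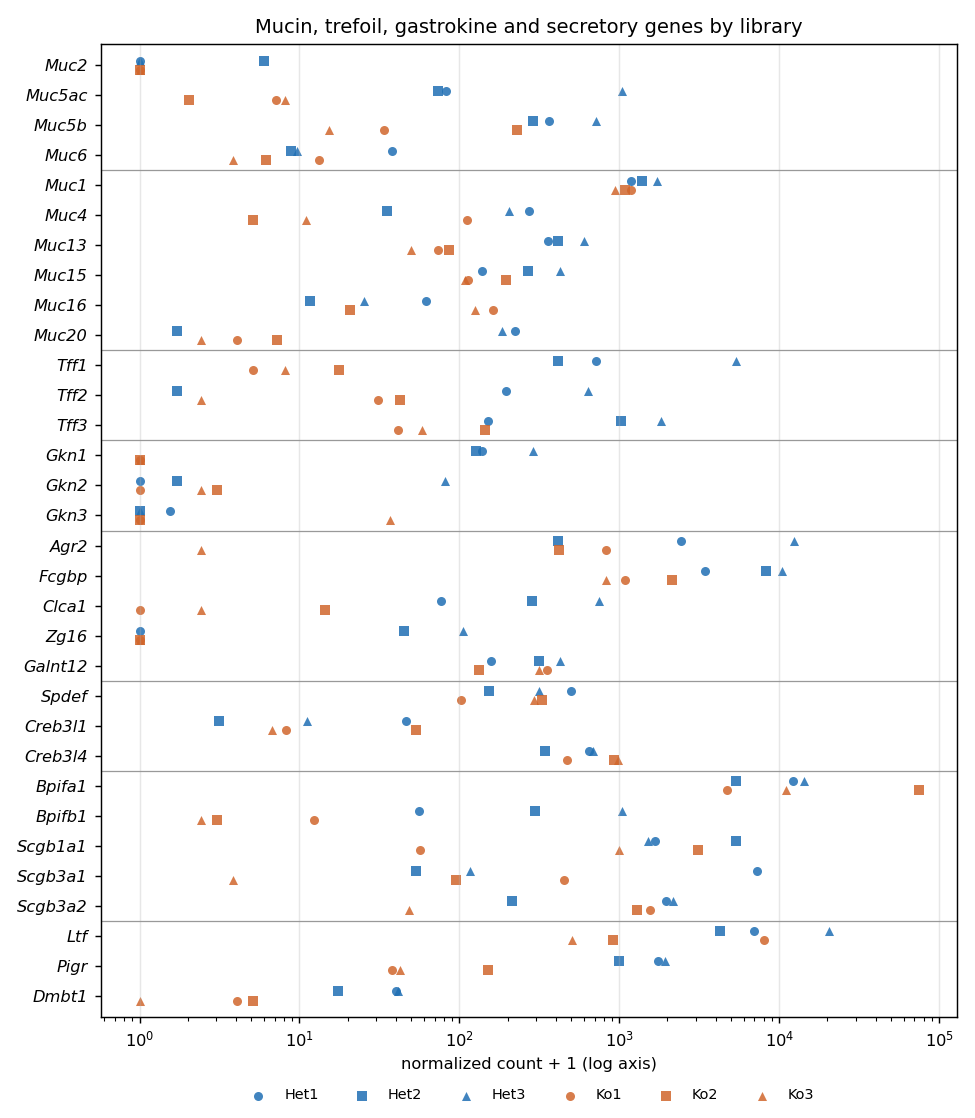
Normalized count plus 1 on a log axis for each of the 32 genes, with 1 point per library (blue, Het1 to Het3; orange, Ko1 to Ko3; circle, square and triangle for libraries 1, 2 and 3) and grey lines between roles. Tff1, Gkn1, Pigr, Fcgbp and Muc13 show orange points apart from blue ones, while Muc1, Spdef, Galnt12 and Bpifa1 overlap.

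The promoters of 4 of the 5 genes that fell are shown to set their letters beside those of a membrane mucin and an airway gene whose groups overlapped. They are the 250 bases before the RefSeq transcript start in GRCm38.p6, a build other than the GRCm39 of the counts. They cover chr6:87350916-87351165 on the minus strand for Gkn1 and, on the plus strand, chr1:130826434-130826683 for Pigr, chr7:28070986-28071235 for Fcgbp and chr16:33793787-33794036 for the first of 2 listed starts of Muc13. Those of Muc1 and Bpifa1 cover chr3:89228806-89229055 and chr2:154142630-154142879, also on the plus strand. Capitals mark every match to TGGGAA (Ikaros type), TGTTTAC or TATTTAC (FOX type), CAGGAT (SPDEF type) and TGACGT or CCACGT (CREB3L and XBP1 type), on either strand.
Gkn1: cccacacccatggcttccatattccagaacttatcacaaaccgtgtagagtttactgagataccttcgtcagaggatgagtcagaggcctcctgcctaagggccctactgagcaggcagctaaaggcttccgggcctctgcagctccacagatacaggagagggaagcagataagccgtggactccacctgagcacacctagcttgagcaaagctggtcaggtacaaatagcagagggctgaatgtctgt
Pigr: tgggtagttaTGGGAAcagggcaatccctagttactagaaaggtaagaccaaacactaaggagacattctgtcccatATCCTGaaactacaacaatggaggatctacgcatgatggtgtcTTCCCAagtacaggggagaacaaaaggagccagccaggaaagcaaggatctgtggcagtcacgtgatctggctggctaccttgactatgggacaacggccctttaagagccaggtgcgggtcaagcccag
Fcgbp: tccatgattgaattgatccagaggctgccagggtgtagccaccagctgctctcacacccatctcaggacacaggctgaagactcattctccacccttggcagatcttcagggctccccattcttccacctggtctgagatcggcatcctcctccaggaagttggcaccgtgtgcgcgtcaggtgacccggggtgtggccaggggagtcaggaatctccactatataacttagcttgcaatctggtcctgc
Muc13: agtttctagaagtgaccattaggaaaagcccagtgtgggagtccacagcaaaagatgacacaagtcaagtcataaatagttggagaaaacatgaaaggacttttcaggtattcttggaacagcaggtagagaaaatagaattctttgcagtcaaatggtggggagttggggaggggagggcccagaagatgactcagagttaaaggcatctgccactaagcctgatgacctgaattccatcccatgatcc
Muc1: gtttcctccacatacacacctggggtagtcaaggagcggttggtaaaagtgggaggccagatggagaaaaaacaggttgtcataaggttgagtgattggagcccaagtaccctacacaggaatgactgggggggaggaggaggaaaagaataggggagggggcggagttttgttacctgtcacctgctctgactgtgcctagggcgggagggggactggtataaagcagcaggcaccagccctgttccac
Bpifa1: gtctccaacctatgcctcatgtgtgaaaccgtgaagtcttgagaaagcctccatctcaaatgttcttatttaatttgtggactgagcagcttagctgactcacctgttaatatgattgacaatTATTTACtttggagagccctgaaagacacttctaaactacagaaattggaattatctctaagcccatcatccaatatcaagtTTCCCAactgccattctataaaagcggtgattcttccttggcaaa

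Pigr held 3 matches, TGGGAA ending 235 bases before the start and, on the opposite strand, CAGGAT ending at 168 and TGGGAA ending at 125. Bpifa1 held a TATTTAC ending 121 bases and an opposite-strand TGGGAA ending 40 bases before the start, and no matches in these windows overlapped another. Gkn1, Fcgbp, Muc13 and Muc1 held none of these letters here. Windows were listed for 19 of the 32 genes, 23 starts in all. TGGGAA was in windows of 5 of the 19 genes, and 21.6% of all 32851 windows held it. The FOX letters were in 4, against 5.76% of all windows, and TGACGT or CCACGT in 1, that of Spdef, against 12.3%. CAGGAT was in 9 genes, namely Agr2, Bpifb1, Ltf, Muc13 at its second start, Muc16, Muc2, Muc6, Pigr and Spdef, and in 13.6% of all windows. Of these 9 genes Muc2 was not in the expression test, and of the others only Pigr and Muc13 were called, beside 5 of all 30 tested. A match describes letters and does not show binding.

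Gel-forming mucins were low, and 0 of 3 tested genes passed the test (2 lower at an unadjusted limma p under 0.05, 0 called by edgeR or voom). DESeq2 gave Muc5ac no adjusted p and called neither Muc5b nor Muc6. Muc5ac, the main mucin of the stomach surface and of airway goblet cells, stood at 81.1, 72.4 and 1042 normalized counts in the Het group and at 6.17, 1.04 and 7.16 in the Ko group. Every Ko library was below every Het library, but Het3 was 12.8 times the next Het library, and the log2 fold change of -5.23 ± 1.31 (SE) did not pass (limma adjusted p = 0.112). Muc5b, the mucin that carries airway clearance, was at 360, 288 and 714 in Het and at 32.9, 228 and 14.3 in Ko libraries (log2 fold change -3.10 ± 0.93, SE; limma adjusted p = 0.172). The groups did not overlap, although Ko2 came close to Het2. Muc6, of gastric gland mucous cells, was at 17.8 ± 16.6 and 6.80 ± 4.94 (n = 3 each, SD). Muc2, the mucin of intestinal goblet cells, had 7 reads in Het2 and 0 in each other library. These 4 genes are neighbours on chromosome 7, in the order Muc6, Muc2, Muc5ac and Muc5b with no other coding gene between them in RefSeq, and next to each other Muc2 was nearly unread while Muc5ac had 969 Het reads and 12 Ko reads.

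Among the 6 membrane mucins only Muc13, a mucin of intestinal and gastric surfaces, passed the test. It fell from 356, 411 and 597 normalized counts in the Het group to 72.0, 84.9 and 48.7 in the Ko group, a 6.63-fold difference of means with no overlap (log2 fold change -2.71 ± 0.51, SE; limma adjusted p = 0.0476). The spread within each group was narrow, yet the call was lost when any library was left out (limma adjusted p = 0.0884, 0.210 and 0.257 without Het1, Het2 and Het3 and 0.0872, 0.0843 and 0.132 without Ko1, Ko2 and Ko3). Such fits hold fewer libraries and called fewer genes of any kind. Over all tested genes, 102 were lower with every library kept. Without Het1, Het2 and Het3 the count was 39, 0 and 0, and without Ko1, Ko2 and Ko3 it was 59, 44 and 13. The same limit applies to the other genes of the set whose calls were lost. Muc1, which is broadly expressed on glandular epithelia, overlapped between groups, at 1176, 1385 and 1713 in Het and 1185, 1090 and 940 in Ko libraries (log2 fold change -0.40 ± 0.24, SE; limma adjusted p = 0.521). Muc15 was at 277 ± 144 and 138 ± 49.7 (n = 3 each, SD; limma adjusted p = 0.543). Muc16, a large mucin of ocular and airway surfaces, had the most positive fold change of the set, 1.51 ± 1.12 (SE; limma adjusted p = 0.614), with 162, 19.7 and 125 in the Ko group against 61.0, 10.6 and 24.5 in Het1, Het2 and Het3, so that the groups overlapped.

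Muc4 and Muc20, which adjoin each other on chromosome 16, were both low in Het2 and high in Het1 and Het3. Muc20 was at 221, 0.71 and 185 in Het1, Het2 and Het3, with a single read in Het2, and at 3.09, 6.22 and 1.43 in Ko libraries. Muc4 measured 270, 34.1 and 203 in Het and 110, 4.14 and 10.0 in Ko libraries. Neither passed the limma test (adjusted p = 0.495 for Muc20 and 0.402 for Muc4), and Ko1 held most of the Muc4 reads of its group.

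Trefoil factors differed in how their libraries separated. Tff1, the peptide of gastric pit cells, fell from 716, 412 and 5343 normalized counts in the Het group to 4.12, 16.6 and 7.16 in the Ko group. The means differed 232-fold and rested on 5564 and 25 reads (log2 fold change -7.01 ± 0.98, SE; limma adjusted p = 0.0183). Het3 was 7.46 times the next Het library, while even the lowest Het library was far above the highest Ko library. The call was lost without Het1, Het2, Het3 or Ko3 (limma adjusted p = 0.0589, 0.0998, 0.199 and 0.0630). Tff3, which intestinal goblet cells secrete, measured 149, 1025 and 1827 in Het and 40.1, 144 and 57.3 in Ko libraries (log2 fold change -3.22 ± 0.88, SE; limma adjusted p = 0.140). Its groups nearly touched at Het1 and Ko2, and without Het1 it passed (limma adjusted p = 0.0486). Tff2, of gastric neck cells, measured 195, 0.71 and 635 in Het and 29.8, 41.4 and 1.43 in Ko libraries (limma adjusted p = 0.734). Het2 lay below Ko1 and Ko2 and could not be told from Ko3, since each of Het2 and Ko3 had 1 read. The genes lie side by side on chromosome 17 in the order Tff3, Tff2 and Tff1, and in Het2 the middle gene had 1 read while its neighbours had 1444 and 580.

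Gastrokine 1, a protein of the stomach surface, had no reads in the Ko libraries. Gkn1 had 246, 178 and 199 reads in Het1, Het2 and Het3, or 138, 126 and 287 normalized counts, and 0 reads in each Ko library. With a floor of 3 reads over the Ko group it was at least 141-fold lower, a bound that covers counting error only (limma adjusted p = 0.0328). The call was lost when any 1 of the 6 libraries was left out, with limma adjusted p-values from 0.0574 to 0.199, although 0 Ko reads remained under each of these omissions. Gkn2 and Gkn3, the adjacent genes on chromosome 6, did not follow it. Gkn2 had 56 of its 57 Het reads in Het3 and 3 reads in Ko libraries, a ratio of rates of 12.9 with a 95% exact counting interval from 4.19 to 64.3. The interval pools reads over libraries and covers counting error only. Between libraries Gkn2 did not pass (log2 fold change -1.41 ± 1.98, SE; limma adjusted p = 0.816). Gkn3 had 25 reads in Ko3 and 1 in all other libraries, in Het1. Each of these counts comes almost wholly from 1 library.

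Among goblet cell granule and folding genes, Fcgbp was the only 1 of 5 that passed. It encodes the IgG Fc binding protein that is crosslinked into mucus, and it fell from 3421, 8230 and 10472 normalized counts in the Het group to 1083, 2131 and 822 in the Ko group, a 5.48-fold difference of means (log2 fold change -2.43 ± 0.43, SE; limma adjusted p = 0.0408). Every Ko library was below every Het library, and the call was lost without Het2, Het3, Ko1 or Ko3 (limma adjusted p = 0.214, 0.237, 0.111 and 0.148). Clca1, a metalloprotease secreted into mucus, measured 75.5, 284 and 740 in Het and 0, 13.5 and 1.43 in Ko libraries, with 1048 and 14 reads (log2 fold change -6.27 ± 1.35, SE; limma adjusted p = 0.0727). Those groups did not overlap either, but the Het libraries spanned a wide range. Zg16, a lectin of goblet granules, had 0, 62 and 73 reads in the Het group and 0 in Ko libraries. Over the groups it was at least 30.5-fold lower in Ko (limma adjusted p = 0.403), yet Het1 could not be told from the Ko libraries.

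Agr2, a disulfide isomerase that folds mucins in the endoplasmic reticulum, varied widely within groups. It stood at 2413, 414 and 12424 normalized counts in the Het group and at 819, 420 and 1.43 in the Ko group, where Ko3 had a single read. Het2 lay below Ko1 and Ko2, so the groups overlapped (log2 fold change -4.62 ± 1.93, SE; limma adjusted p = 0.331). Galnt12, a transferase that starts mucin O-glycans, measured 299 ± 135 in Het and 267 ± 119 in Ko libraries (n = 3 each, SD; log2 fold change -0.17 ± 0.55, SE; limma adjusted p = 0.929).

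Transcription factors of secretory cells did not pass the test, with 0 of 3 called (0 also at an unadjusted limma p under 0.05 and by edgeR, DESeq2 and voom). Spdef, the ETS factor of goblet cell maturation, was at 496, 152 and 315 normalized counts in the Het group and 102, 329 and 292 in the Ko group (log2 fold change -0.42 ± 0.61, SE; limma adjusted p = 0.822). High and low libraries occurred in both groups. Creb3l4 measured 645, 344 and 687 in Het and 471, 926 and 981 in Ko libraries (log2 fold change 0.50 ± 0.40, SE; limma adjusted p = 0.641), and Creb3l1 was at 19.2 ± 23.0 and 21.9 ± 26.8 (n = 3 each, SD; limma adjusted p = 0.958). Both are membrane-bound factors released from the endoplasmic reticulum. Without Ko1 the fold change of Spdef had the opposite sign, 0.11, and that of Creb3l1 was -0.66 without Het2 and -0.66 without Ko2.

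Airway secretory genes separated into a gene with almost no Ko reads and 4 genes that each peaked in a different library. Bpifb1, a bactericidal fold protein of airway and salivary secretions, was at 54.8, 294 and 1036 normalized counts in the Het group and 11.3, 2.07 and 1.43 in the Ko group (log2 fold change -5.83 ± 1.29, SE; limma adjusted p = 0.0793). Its groups did not overlap, with 1230 and 14 reads. Bpifa1, the related surfactant protein of upper airway epithelium (also called SPLUNC1), lies on the same stretch of chromosome 2 with 1 coding gene between them and did not share its pattern. It measured 12151, 5364 and 14217 in Het and 4741, 74210 and 10981 in Ko libraries (log2 fold change 0.69 ± 0.80, SE; limma adjusted p = 0.772). Ko2 was 6.76 times the next Ko library, and without Ko2 the log2 fold change was -0.43.

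The secretoglobins are small proteins of club cells, and 0 of 3 passed (0 also at an unadjusted limma p under 0.05 and by edgeR and voom). DESeq2 gave Scgb3a1 no adjusted p and called neither Scgb1a1 nor Scgb3a2. Scgb1a1 was highest in Het2, at 1682, 5385 and 1512 normalized counts in the Het group and 55.6, 3086 and 994 in the Ko group. Scgb3a1 was at 7282 in Het1 and at 52.5, 115, 450, 94.3 and 2.86 in Het2, Het3, Ko1, Ko2 and Ko3, so that Het1 was 63.1 times the next Het library. Scgb3a2 measured 1949, 211 and 2161 in Het and 1561, 1283 and 47.3 in Ko libraries. Limma adjusted p-values were 0.480, 0.603 and 0.776 for Scgb1a1, Scgb3a1 and Scgb3a2. All of these groups overlapped, and a single library led each of the first pair.

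Of the mucosal defence genes, Pigr had the smallest p of the set. It encodes the polymeric immunoglobulin receptor, which carries IgA across epithelia, and it fell from 1745, 990 and 1939 normalized counts in the Het group to 37.0, 151 and 41.5 in the Ko group. The means differed 20.3-fold (log2 fold change -4.58 ± 0.58, SE; limma adjusted p = 0.0121), and the lowest Het library was well above the highest Ko library. The call was lost without Het1, Het2, Het3 or Ko3 (limma adjusted p = 0.0562, 0.0998, 0.199 and 0.0513). Dmbt1, a scavenger protein that binds bacteria in mucus, measured 39.1, 16.3 and 40.4 in Het and 3.09, 4.14 and 0 in Ko libraries (log2 fold change -3.47 ± 1.38, SE; limma adjusted p = 0.309), without overlap at low counts of 121 and 7 reads.

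Ltf, the gene for the iron-binding protein lactoferrin, was at 6940, 4276 and 20334 normalized counts in the Het group and 8049, 909 and 504 in the Ko group (log2 fold change -2.45 ± 0.89, SE; limma adjusted p = 0.261). Ko1 lay inside the Het range, and without it the difference passed (limma adjusted p = 0.0489; log2 fold change -3.64). Neutrophils also make lactoferrin, and 9 of 15 neutrophil markers were tested, 8 of them with negative fold changes. Their summed normalized counts ran from 1183 to 7859 in Het and from 176 to 628 in Ko libraries, and none of the 15 was without reads in all libraries. The sum was lowest in Ko1, where Ltf was high, and highest in Het2, where Ltf was lowest of the Het libraries. The neutrophil marker S100a9, at 428, 741 and 841 in Het libraries, was highest in Het3, where Ltf was highest too. Whether neutrophils contributed to the Ltf values was not tested.

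**Figure D2:**
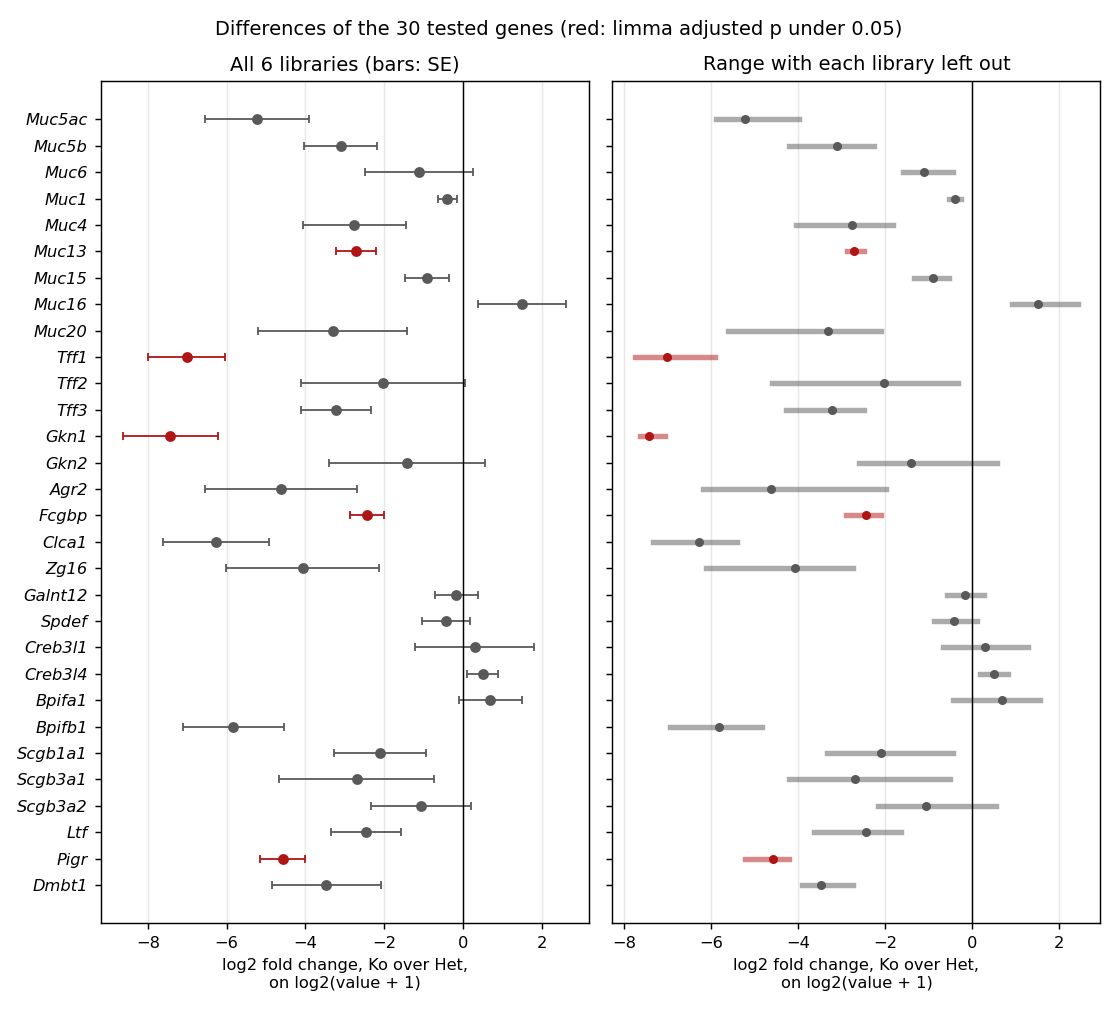
Log2 fold change, Ko over Het, on log2(value + 1) for the 30 tested genes, with SE bars at the left and, at the right, the same values (points) with the range over fits that leave out each library (bars); red marks limma adjusted p under 0.05. Muc13, Fcgbp, Pigr, Gkn1 and Tff1 keep ranges well below 0, while Gkn2, Galnt12, Spdef, Creb3l1, Bpifa1 and Scgb3a2 cross it.

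Calls were lost with fewer libraries even where directions did not change, in the set and among all tested genes. Leaving out Het2, Het3 or Ko3 left 0 of the 30 genes called, with 16, 9 and 10 lower at an unadjusted p under 0.05 (limma), against 6.02%, 5.97% and 6.64% of all tested genes, and among all tested genes 0, 0 and 13 were then lower at the adjusted threshold. On the recovered reads, edgeR called Pigr and Tff1 lower, DESeq2 10 genes and voom 0 (8 at an unadjusted p under 0.05, against 6.01% of all tested genes), where 0.263%, 3.89% and 0.103% of all genes were called lower, and each called 0 of the 30 higher (0 also at an unadjusted p under 0.05), where edgeR, DESeq2 and voom called 0.124%, 1.94% and 0.103% of all genes higher. The DESeq2 calls were Bpifb1, Clca1, Fcgbp, Gkn1, Muc13, Muc20, Pigr, Tff1, Tff3 and Zg16. The authors' deposited table gave 10 of 28 genes with an adjusted p as lower, with Dmbt1 (adjusted p = 0.0292) in place of Zg16 (0.0506), where 5.16% of its genes were lower, and 0 of the 28 as higher, where 3.03% of its genes were.

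The share of all reads that came from the program varied widely between libraries, and the groups overlapped. The 32 genes together took 0.245%, 0.170% and 0.444% of the reads in the Het group and 0.113%, 0.482% and 0.0933% in the Ko group. Without Bpifa1 these shares were 0.175%, 0.140% and 0.365% against 0.0856%, 0.0640% and 0.0306%, and the groups no longer overlapped. Bpifa1 was the gene through which Ko2 reached the Het range, and no other gene was left out in this way. The separation without it therefore describes these values and is no test. Bpifa1 made up 86.7% of the set's reads in Ko2, and Ltf 41.2% in Ko1, whereas Fcgbp led in Het2 with 27.1% and Ltf in Het3 with 25.5%. Goblet granule and folding genes took 0.0345%, 0.0519% and 0.135% in Het and 0.0131%, 0.0152% and 0.0065% in Ko libraries, without overlap. The secretory regulators took 0.00278% to 0.00675% in Het and 0.00336% to 0.00737% in Ko libraries, with overlap.

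**Figure D3:**
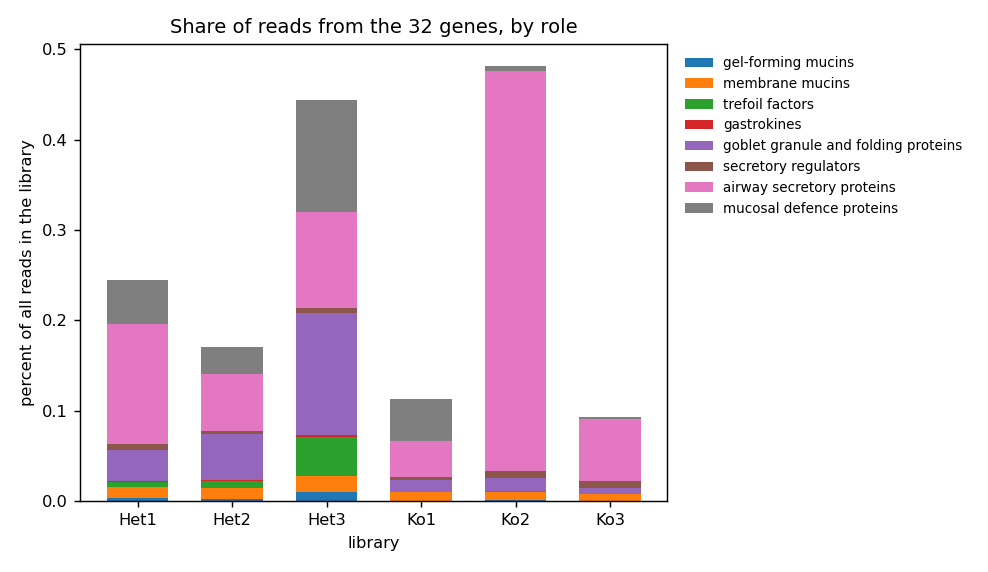
Percent of all reads in each library (x axis) that came from the 32 genes, stacked by role. Ko2 stands at 0.482% through the airway genes, and Ko3 is lowest at 0.0933%. Het3 stands at 0.444%, with goblet granule and folding (0.135%), mucosal defence (0.124%) and airway genes (0.106%) as its largest parts.

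Het3 had the highest value for 20 of the 30 tested genes, whereas 17.8% of all tested genes were highest there. Het1 was highest for 5 genes, Ko2 for 2 and Het2, Ko1 and Ko3 for 1 each. Per kilobase of merged exons (GENCODE M21), the highest medians over the Het libraries were those of Bpifa1 with 7865 normalized counts per kilobase, Scgb1a1 with 3533, Scgb3a2 with 2215, Tff3 with 2080, Ltf with 2011 and Agr2 with 1869. Medians are given because single libraries carried several means, as Het1 did for Scgb3a1, whose median was 193 and mean 4153 per kilobase. On the same median scale the gel-forming mucins Muc5ac and Muc5b were at 7.54 and 24.0, and Muc1 at 590. In Ko libraries the medians of Bpifa1 (7107), Scgb1a1 (2088) and Scgb3a2 (1457) were highest, and Tff1 was at 10.2 and Pigr at 10.3, beside 1019 and 434 in Het libraries.

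Other genes of mucus production showed few calls. Of 25 tested enzymes of mucin O-glycosylation, 0 passed in either direction (median log2 fold change -0.61), and Galnt4 measured 277 ± 76.8 in Het and 54.1 ± 21.1 in Ko libraries (n = 3 each, SD; limma adjusted p = 0.116). Of 19 secretory transcription factors, 0 passed, with 10 negative and 9 positive fold changes and a median of -0.01, and Klf5 was at 5541 ± 546 and 4071 ± 517 (limma adjusted p = 0.262). Of 26 genes of endoplasmic reticulum folding and mucin release, 0 passed (median -0.22), with the sulfhydryl oxidase gene Qsox1 at 516 ± 179 and 83.6 ± 75.3 (limma adjusted p = 0.148). Of 13 other mucins and mucin-like genes, 0 passed (median -0.76), with Mucl1 at 75.1 ± 11.5 and 0.688 ± 0.596 (limma adjusted p = 0.0826). All of these medians stand beside -0.05 over all tested genes. At an unadjusted limma p under 0.05, 5 O-glycosylation genes were lower and 1 higher, 4 transcription factors lower and 0 higher, 3 folding and release genes lower and 1 higher, and 2 other mucins lower and 0 higher. In these lists edgeR and voom called 0, while DESeq2 called 2 lower and 1 higher O-glycosylation gene, 1 lower folding gene and 2 lower other mucins.

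Genes named for the tissues that secrete mucus included 1 intestinal goblet, 1 stomach and 4 airway genes called lower, where 0.525% of all tested genes were. Among 16 tested intestinal goblet genes, the tissue kallikrein gene Klk1 fell from 1296, 222 and 1796 normalized counts in the Het group to 2.06, 28.0 and 1.43 in the Ko group (limma adjusted p = 0.0338). Kallikreins are close in sequence, so its separate value is uncertain. Among 13 stomach genes the annexin gene Anxa10 fell from 99.0, 838 and 297 to 1.03, 4.14 and 2.86 (limma adjusted p = 0.0400), and 11 of the 13 had negative fold changes (median -2.81). The summed normalized counts of the stomach list were 6118, 7890 and 16323 in Het and 4240, 3623 and 2353 in Ko libraries, highest in Het3 as for Tff1 and Gkn1. The gap between these sums came through Psca, and without it the groups overlapped. Psca was at 4440, 3181 and 8804 in Het and at 2089, 13.5 and 298 in Ko libraries (limma adjusted p = 0.172). Of 27 airway secretory genes 4 fell, the microfold and mucosal receptor gene Gp2, the chitinase-like gene Chil4, the lectin gene Reg3g and Lypd2 (limma adjusted p = 0.0123, 0.0324, 0.0341 and 0.0419), and 0 rose. Lypd2 was at 2071 ± 1308 and 238 ± 188 (n = 3 each, SD). At an unadjusted limma p under 0.05, 6 goblet, 3 stomach and 12 airway genes were lower and 1 of each list higher. Over all tested genes, 7.99% were lower and 5.62% higher at that threshold. For goblet, stomach and airway genes, edgeR called 0, 1 and 2 lower, DESeq2 4, 1 and 8, and voom 0, 0 and 1. DESeq2 also called 1 goblet and 1 airway gene higher.

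**Figure D4:**
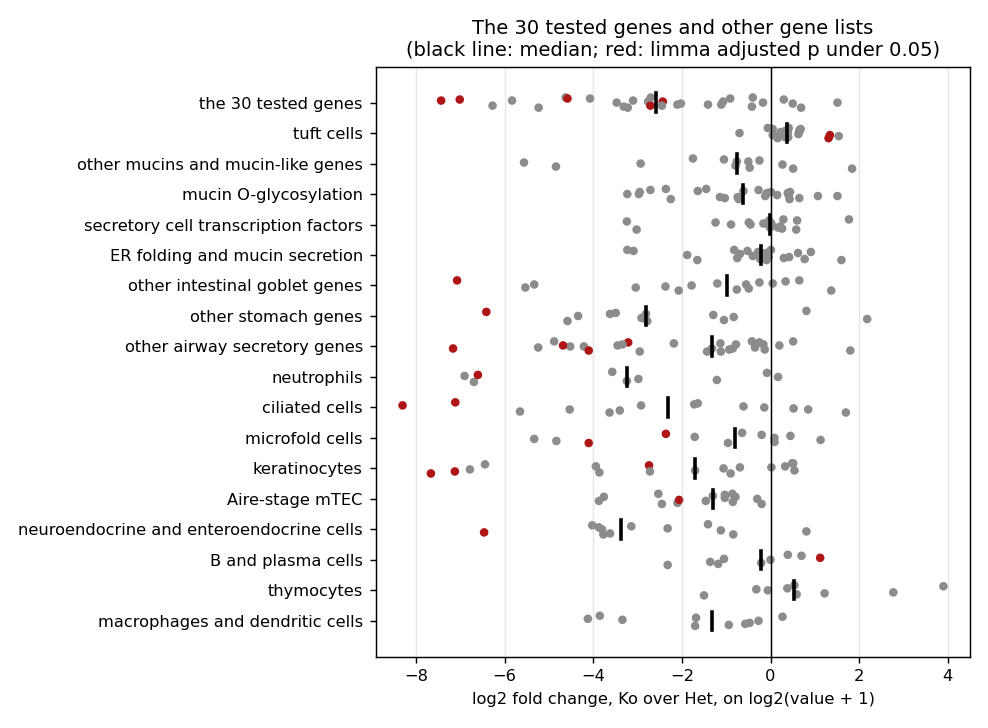
Log2 fold change, Ko over Het, on log2(value + 1), with 1 point per tested gene, for the 30 tested genes and the other gene lists; a black line marks each median and red marks limma adjusted p under 0.05. The median of the 30 genes is -2.57, and those of mucin O-glycosylation, secretory transcription factors and tuft cells are -0.61, -0.01 and 0.38.

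Markers of other cells differed between the groups in several lists, and their part in the differences above was not tested. Over all tested genes, 52.8% had negative fold changes, 0.525% were called lower and 0.288% higher. Of 20 tuft cell markers, 18 had positive fold changes, and Rgs13 and Ptgs1 rose (limma adjusted p = 0.00868 and 0.0264). Aire-stage medullary genes had negative fold changes in 15 of 15, with Ctsz falling (limma adjusted p = 0.0121) and summed normalized counts of 59579 to 152759 in Het and 39073 to 61341 in Ko libraries. Neuroendocrine markers were negative in 11 of 12 and summed to 1023 to 3917 and 74.5 to 915, with Gip falling (limma adjusted p = 0.0493). Ciliated cell markers were negative in 11 of 14 and summed to 7723 to 20141 and 6997 to 7829, with Sntn and Cdhr4 falling (limma adjusted p = 0.0191 and 0.0403). Keratinocyte markers were negative in 12 of 17 and summed to 40601 to 56993 and 28580 to 45767, with Sprr1a, Krt6b and Sprr2e falling (limma adjusted p = 0.00978, 0.0190 and 0.0381). The sums of the Aire-stage, ciliated and keratinocyte lists overlapped between the groups. Microfold markers were negative in 8 of 12 and positive in 4, among them Spib and Sox8 (log2 fold change 0.45 and 1.13). They summed to 42718 to 59368 and 26315 to 28644, with Gp2 and Pglyrp1 falling (limma adjusted p = 0.0123 and 0.0190). Gp2, counted in the airway list too, was at 18627, 5519 and 16339 in Het and at 1355, 351 and 696 in Ko libraries. Without Gp2 the microfold sums overlapped.

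Blood cell markers did not move in a single direction. The neutrophil marker S100a9 fell from 428, 741 and 841 normalized counts in the Het group to 2.06, 2.07 and 30.1 in the Ko group (limma adjusted p = 0.0272). Macrophage and dendritic cell markers were negative in 9 of 10 with 0 called (3 lower at an unadjusted limma p under 0.05; 2 lower by DESeq2, 0 by edgeR and voom), and summed to 5365 to 54363 in Het and 1312 to 3302 in Ko libraries. Most of the Het sums came from Lyz2, which also stands in the airway list. Lyz2 was at 53300, 3666 and 8729 in Het and at 497, 2900 and 1130 in Ko libraries. Without it the sums of the groups overlapped. Of 9 tested B and plasma cell markers 5 were negative and 4 positive, and Cd79b rose from 3039, 1876 and 2473 normalized counts in the Het group to 4665, 5508 and 5665 in the Ko group (limma adjusted p = 0.0433). The list summed to 3523 to 5291 in Het and 5819 to 7106 in Ko libraries. The gap between these sums came through Cd79b, and without it the groups overlapped. Of 9 tested thymocyte markers 0 passed (1 higher at an unadjusted limma p under 0.05; 1 higher by DESeq2, 0 by edgeR and voom), with 3 negative and 6 positive, and the list summed to 186 to 703 and 639 to 1371.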

How the data were processed

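RNA was sequenced from 6 libraries of sorted L1CAM+ thymic tuft cells, lysed for SMART-seq, as the labels' protocols state. STAR 2.7.9a, GRCm39 and DESeq2 are named in the submitters' processing notes. Counter, annotation and strandedness were not stated in them. The authors deposited a signal per gene, read counts scaled by a size factor. The authors' deposited table adds, per the file headers, a log2 fold change with its error, a Wald score and a p-value per gene. Whole reads were recovered by dividing by each library's smallest value (100% of values above 0 whole within 0.01).

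Genes with a mean of at least 10 were tested in limma 3.58.1 (R 4.3.3) on log2(value + 1) (trend, two-sided, genotype only, Benjamini-Hochberg over 19416 genes, threshold 0.05). Fold changes on this scale understate low genes. An exact permutation test of 3 against 3 could not go below 0.1. Symbols came from a gene name table (55144 of 55471 IDs), and 308 of 310 list symbols matched, with older names from RefSeq GRCm38.p6. The members and lists were chosen with earlier results of these data known. Besides all 32 genes, the text names from each list the called genes, at most 4 by p, and up to 2 with the smallest p where fewer than 2 were called. Alternatives were 3 other pseudocounts, 2 filters, 3 scalings, robust and weighted fits, edgeR 4.0.16, DESeq2 1.42.0, voom, a block and each library left out with the tested genes kept. Fits were tested on simulated data.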

Additional observations from a re-analysis of the deposited data

How the results depend on the processing

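The count of 5 genes lower was 4 or 5 under 3 other pseudocounts, both filters, quantile, equal-total and TMM scaling, array weights and robust eBayes. It was 2 with edgeR, 10 with DESeq2 and 0 with voom, and the cause was not tested. Leaving out each library gave 0 to 3, where fewer libraries remained. The count of 0 genes higher (0 also at an unadjusted limma p under 0.05) was the same under all 20 alternatives. Quantile scaling moved the median of all tested genes from -0.05 to 0.08, and no gene of the set changed sign under any scaling.

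Signs turned only with a library left out, and for genes that did not pass. Over these omissions the log2 fold change ran from -2.60 to 0.58 for Gkn2 (highest without Het3), -0.57 to 0.27 for Galnt12 (0.14 without Het3, 0.27 without Ko2) and -0.88 to 0.11 for Spdef (highest without Ko1). It ran from -0.66 (without Het2 or Ko2) to 1.29 for Creb3l1, -0.43 (without Ko2) to 1.55 for Bpifa1 and -2.16 to 0.56 (without Ko3) for Scgb3a2. With the column number as a replicate block 3 genes were lower, but the labels give no shared numbers. Deviations of same-numbered libraries correlated at 0.025, 0.021 and -0.015, and not every library correlated best with its own number. Depth limits genes near the floor, since 3 reads in Het3 and Ko3 correspond to 4.33 and 4.30 normalized counts.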
